A study of Mus musculus with 2 samples.

Results

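The balance between E-cadherin and N-cadherin, and the transcription factors that set it, was examined in mouse embryonic stem cells (mESCs) without functional DICER. The set holds 10 genes, chosen by name: the cadherins Cdh1 and Cdh2, the epithelial adhesion molecule Epcam, the transcription factors Zeb1, Zeb2, Snai1, Snai2 and Twist1, the intermediate filament gene Vim and the splicing regulator Esrp1. All 10 were found among the 43629 Ensembl genes counted. PolyA RNA was sequenced in 2 libraries of Dicer_KO mESCs, replicate 1 at passage 7 and replicate 2 at passage 4. Both derive from E14TG2a, a blastocyst line with a 129/Ola background, cultured in serum with LIF. The study made its mutants with paired CRISPR/Cas9 guides that delete either the stretch from the PAZ to the second RNase III domain (Δ13) or the second RNase III domain alone (Δ23), and each line grew from a single sorted cell. The labels give both libraries the genotype Dicer knockout and do not say which deletion each carries. WT libraries were not analysed here, so the data describe levels in mutant cells and the difference between the 2 libraries. In that difference, passage, library preparation and cell line, should the lines differ, cannot be told apart. That difference rests on 1 library on each side and carries no test.

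E-cadherin, encoded by Cdh1, holds epithelial cells and naive mESCs together by binding its like on the neighbouring cell, and its tail is anchored to actin through catenins. During an epithelial to mesenchymal transition (EMT), repressors of the ZEB, SNAIL and TWIST families silence Cdh1 and Epcam, while N-cadherin (Cdh2) and vimentin (Vim) appear. MicroRNAs of the miR-200 family, which need DICER to mature, bind the transcripts of Zeb1 and Zeb2, and the ZEB proteins in turn repress the miR-200 genes.

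The mature miR-200 sequences are shown because their seeds, bases 2 to 8, decide which transcripts they can pair with. They come from RefSeq (GRCm38.p6), the seed is in capitals, and the 5 miRNAs fall into 2 groups that differ at a single seed base.
miR-200a-3p (chr4:156054911-156054932, minus strand): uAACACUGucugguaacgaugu
miR-141-3p (chr6:124717917-124717938, minus strand): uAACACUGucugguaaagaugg
miR-200b-3p (chr4:156055685-156055706, minus strand): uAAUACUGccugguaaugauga
miR-200c-3p (chr6:124718324-124718346, minus strand): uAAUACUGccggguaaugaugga
miR-429-3p (chr4:156053916-156053937, minus strand): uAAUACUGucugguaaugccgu

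Matches to these seeds were counted in the 3′ UTR of each gene, on the transcript strand, as CAGTATT for miR-200b, miR-200c and miR-429 and CAGTGTT for miR-200a and miR-141. The transcript with the longest coding sequence in GENCODE M21 (GRCm38) was used. Zeb1 had 9 matches in 2401 nucleotides, 5 of the first kind and 4 of the second, and Zeb2 had 8 in 1450 nucleotides, 5 and 3. The comparison was with genes whose 3′ UTR was within 20% of the same length, the gene itself included. At least as many matches were held by 0.0441% of 2270 genes for Zeb1 and by 0.0383% of 2611 for Zeb2. Each of these shares is the gene itself alone, so no other gene of like length had as many. Snai2 and Esrp1 had 2 matches each and Snai1 had 1, numbers that 3.96%, 6.05% and 16.6% of genes of like length reached. Cdh1, Cdh2, Epcam, Twist1 and Vim had 0. Over all 20592 genes with a 3′ UTR, 23.8% had at least 1 match. When the match was extended by an A opposite the first base of the miRNA, 6 remained in Zeb2, 3 in Zeb1 and 0 in the other members. A match is a description of sequence, and binding was not measured.

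**Figure D1:**
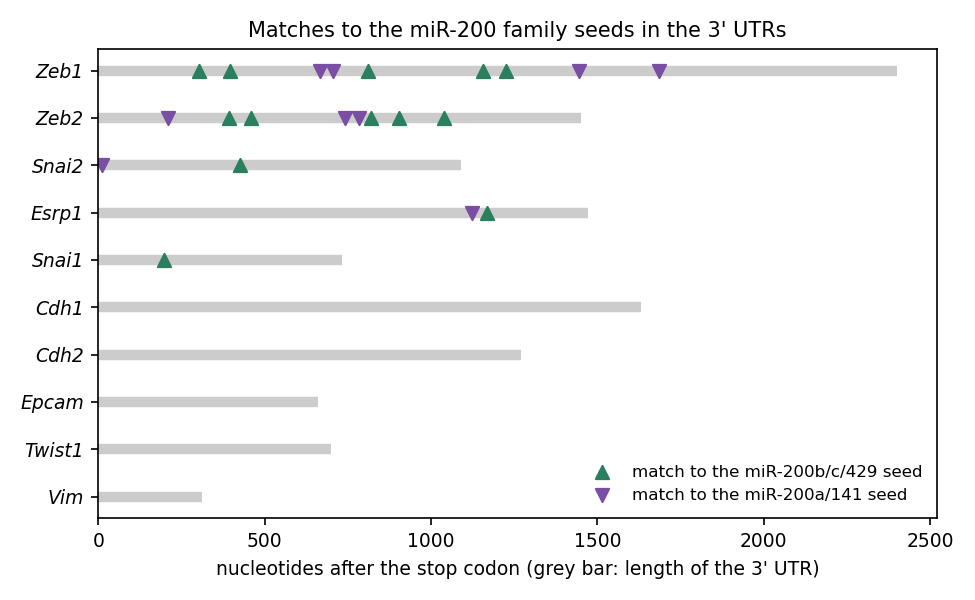
Positions of matches to the miR-200 family seeds in the 3′ UTR of each of the 10 genes, in nucleotides after the stop codon, with a grey bar for the length of the 3′ UTR and a symbol for each seed group. Zeb1 holds 9 matches and Zeb2 holds 8, while Cdh1, Cdh2, Epcam, Twist1 and Vim hold 0.

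The 8 matches of Zeb2 are shown with 7 bases on either side, since they are the densest of the set at 5.52 per kb. The matched letters are in capitals, the order runs from the stop codon, and the sequences are from GENCODE M21.
Zeb2 match 1 (chr2:44988351-44988371, minus strand): ttttgtaCAGTGTTaaggcct
Zeb2 match 2 (chr2:44988167-44988187, minus strand): catacatCAGTATTttattat
Zeb2 match 3 (chr2:44988102-44988122, minus strand): agtgcatCAGTATTacgattc
Zeb2 match 4 (chr2:44987819-44987839, minus strand): ccttgtaCAGTGTTcagaggg
Zeb2 match 5 (chr2:44987778-44987798, minus strand): ccagcttCAGTGTTaagctca
Zeb2 match 6 (chr2:44987740-44987760, minus strand): cccgtgtCAGTATTagacgac
Zeb2 match 7 (chr2:44987655-44987675, minus strand): attttgtCAGTATTacaccaa
Zeb2 match 8 (chr2:44987521-44987541, minus strand): tagtgtaCAGTATTatagttc

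The promoters of Epcam and Vim run from 250 bases before to 50 after the start site (RefSeq, GRCm38.p6). They are shown for an epithelial and a mesenchymal gene of the set with an entry there. They were searched for the E-box CACCTG, the letters bound by SNAIL and ZEB zinc fingers, on both strands (CAGGTG on the other). Epcam held 2, in capitals, and Vim held 0. Of 32851 promoters in the table, 20.2% held at least 1 and 2.88% held at least 2. Snai1 held 1, and Twist1 and the 4 start sites of Zeb2 held 0. No promoter is reported here for Cdh1, Cdh2, Zeb1, Snai2 and Esrp1, so whether theirs hold this E-box is left undescribed. The absence of a match says only that these letters are not in the window.
Epcam (chr17:87635729-87636028, plus strand): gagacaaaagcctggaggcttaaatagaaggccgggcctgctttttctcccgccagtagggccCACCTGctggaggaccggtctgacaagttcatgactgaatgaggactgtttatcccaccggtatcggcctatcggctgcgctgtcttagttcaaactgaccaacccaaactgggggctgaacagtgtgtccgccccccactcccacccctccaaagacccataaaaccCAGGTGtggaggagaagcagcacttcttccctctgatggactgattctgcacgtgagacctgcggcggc
Vim (chr2:13574061-13574360, plus strand): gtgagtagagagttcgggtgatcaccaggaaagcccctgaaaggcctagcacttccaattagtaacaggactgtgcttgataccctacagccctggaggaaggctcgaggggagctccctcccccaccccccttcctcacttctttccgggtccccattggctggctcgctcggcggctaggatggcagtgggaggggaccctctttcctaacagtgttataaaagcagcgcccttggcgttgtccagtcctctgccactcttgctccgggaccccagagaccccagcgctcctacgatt

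Counts on genes summed to 41710122 in replicate 1 and 41566184 in replicate 2. Levels are given as counts scaled to a total of 1000000 on genes (CPM), with the exact (Clopper-Pearson) 95% interval, which covers counting error only, or as mean ± SD over the 2 libraries. Dicer1, the targeted gene, had 1343 and 1510 counts, or 32.2 and 36.3 CPM. The deletions remove part of the gene, so a count over its whole length does not check them. The paper reports from its RNA sequencing that Dicer mRNA was lost in both mutants, whereas reads on the gene remained here. Without a WT library, a fall in the level of Dicer1 could not be assessed. The paper has further evidence for the knockouts: PCR of the deletions, no DICER protein on immunoblots and no mature form of the miRNAs probed. The mESC identity was checked by 9 marker genes, and each stood at 99.5 CPM or more in both libraries. The most abundant by the mean of the libraries were Dppa5a, at 4792 and 2041 CPM, and Pou5f1, which encodes OCT4, at 937 and 1035. Both have related pseudogenes that could share their reads.

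Cdh1 (ENSMUSG00000000303, chromosome 8, 106603351 to 106670246, plus strand) was the most abundant of the 10 genes. It had 38316 counts in replicate 1, or 919 CPM (909 to 928), and 34304 in replicate 2, or 825 CPM (817 to 834), a mean of 872 ± 66.0 CPM (SD, n = 2). Epcam (ENSMUSG00000045394, chromosome 17, 87635979 to 87651129, plus strand), a homophilic adhesion molecule of epithelia and stem cells, had 13562 and 11763 counts, or 325 and 283 CPM, a mean of 304 ± 29.8. Esrp1 (ENSMUSG00000040728, chromosome 4, 11331933 to 11386783, minus strand), which directs epithelial splice forms, had 7976 and 5708 counts, or 191 and 137 CPM, a mean of 164 ± 38.1. The 3 epithelial genes were thus high in both libraries, and each was somewhat higher in CPM in replicate 1.

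The mesenchymal genes were uneven between the libraries. Vim (ENSMUSG00000026728, chromosome 2, 13573927 to 13582826, plus strand) had 1520 counts in replicate 1, or 36.4 CPM (34.6 to 38.3), and 6933 in replicate 2, or 167 CPM (163 to 171). Cdh2 (ENSMUSG00000024304, chromosome 18, 16588877 to 16809246, minus strand) had 31 counts in replicate 1, or 0.743 CPM (0.505 to 1.05), and 328 in replicate 2, or 7.89 CPM (7.06 to 8.79). Both genes were lower in replicate 1, and the intervals of the libraries were far apart. In bulk RNA, fewer cells that express a gene and less RNA per cell cannot be told apart.

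Among the repressors, Zeb1 (ENSMUSG00000024238, chromosome 18, 5591860 to 5775467, plus strand) had 105 counts in replicate 1, or 2.52 CPM (2.06 to 3.05), and 223 in replicate 2, or 5.36 CPM (4.68 to 6.12). Zeb2 (ENSMUSG00000026872, chromosome 2, 44983632 to 45117395, minus strand) had 6 and 21 counts, or 0.144 CPM (0.0528 to 0.313) and 0.505 CPM (0.313 to 0.772), so that its intervals met at their ends. Both ZEB genes were lower in replicate 1. Snai1 (ENSMUSG00000042821, chromosome 2, 167538195 to 167542814, plus strand), which encodes SNAIL, had 334 and 225 counts, or 8.01 and 5.41 CPM. Twist1 (ENSMUSG00000035799, chromosome 12, 33957671 to 33959829, plus strand), a basic helix-loop-helix factor of mesoderm and neural crest, had 189 and 160 counts, or 4.53 and 3.85 CPM. Snai2 (ENSMUSG00000022676, chromosome 16, 14705852 to 14709385, plus strand), which encodes SLUG, had 4 and 8 counts, a mean of 0.144 ± 0.0683 CPM, close to the 0.0719 and 0.0722 CPM that 3 counts represent. The 10 annotated genes that overlap Cdh2, Zeb1, Zeb2 and Esrp1, most of them on the other strand, had at most 3 counts in either library. The strand setting of the counting is not given in the sources used here.

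Levels of different genes were set side by side as CPM per kb of annotated exon. The order from the highest mean was Cdh1 (201 in replicate 1 and 180 in replicate 2), Epcam (148 and 129), Esrp1 (30.3 and 21.8), Vim (7.68 and 35.2), Snai1 (4.94 and 3.34), Twist1 (2.78 and 2.36), Cdh2 (0.0921 and 0.978), Zeb1 (0.245 and 0.523), Snai2 (0.0475 and 0.0952) and Zeb2 (0.00721 and 0.0253). Of the neighbours in this order, Esrp1 and Vim overlapped in range and changed places between the libraries, and so did Cdh2 and Zeb1. The ranges of the other neighbours did not overlap, although those of Snai2 and Zeb2 rest on few counts. With the length of the longest transcript in place of all exons the order was the same.

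Among the 14685 protein-coding genes averaging 10 or more counts, Cdh1 stood at percentile 99.3 in replicate 1 and 99.2 in replicate 2, and Epcam at 98.9 and 98.7. Snai1 and Twist1 lay lower, at 48.0 and 43.9 and at 36.2 and 37.9. Vim moved most in rank, from percentile 58.8 in replicate 1 to 91.3 in replicate 2, followed by Cdh2, from 3.17 to 26.6. Zeb1 was at 9.52 and 20.3. Per kb, Cdh1 exceeded Cdh2 by 2180 times in replicate 1 and by 184 times in replicate 2, so E-cadherin transcripts prevailed in both. Cdh1 exceeded Vim by 26.1 and 5.13 times. With the longest transcript as the length, Cdh1 exceeded Cdh2 by 1351 and 114 times and Vim by 16.6 and 3.27 times. Within the pairs of related factors, Zeb1 exceeded Zeb2 by 34.0 and 20.6 times, Snai1 exceeded Snai2 by 104 and 35.1 times, and Esrp1 exceeded its relative Esrp2 by 2.94 and 3.19 times. The ratios over Zeb2 (6 and 21 counts) and Snai2 (4 and 8 counts) are imprecise. By the longest transcript, Zeb1 exceeded Zeb2 by 27.5 and 16.7 times and Esrp1 exceeded Esrp2 by 3.91 and 4.24 times.

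**Figure D2:**
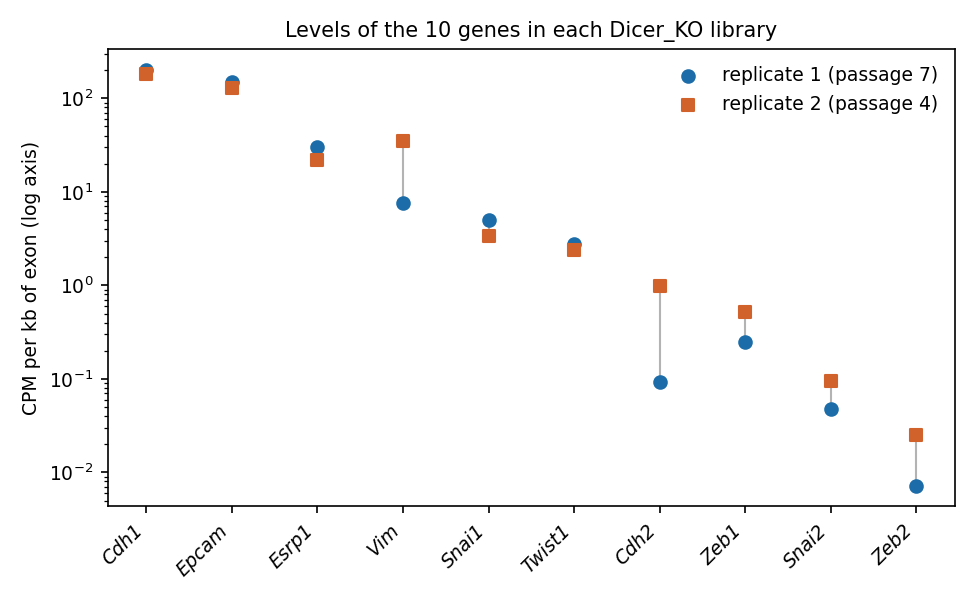
Level of each of the 10 genes as CPM per kb of exon, on a log axis, in replicate 1 (circles) and replicate 2 (squares), joined by a grey line and ordered by the mean. Cdh1 and Epcam lie above 100 in both libraries, Zeb2 lies lowest, and the longest line, from 0.0921 to 0.978, belongs to Cdh2.

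The libraries were then compared gene by gene with the library sizes evened out by TMM factors (edgeR), as the log2 ratio of replicate 1 over replicate 2 with a pseudocount of 1. A gene was called where the ratio was beyond 2-fold, among the 17788 genes averaging 10 or more counts. Of these, 21.4% were called, 7.14% lower and 14.2% higher in replicate 1. Snai2, with a mean of 6 counts, was below the minimum. Of the 9 members above it, 4 were called, namely Cdh2, Vim, Zeb2 and Zeb1, and all 4 were lower in replicate 1. Zeb2, with 6 and 21 counts, reached the minimum only through replicate 2, where it was higher, so the minimum itself favoured that direction. The background depends on the level: among genes averaging 100 or more counts, 14.0% were called and 4.11% were lower in replicate 1, and there 3 of 8 members were called. Among genes averaging 10 to 100 counts, 41.3% were called and 15.4% were lower in replicate 1, and the only member at that level, Zeb2, was called. With 1 library on each side, no test of these shares was made.

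Cdh2 had the lowest log2 ratio of the set at -3.48, with an exact counting interval of -4.11 to -2.99, the 42nd lowest of the 17788 genes. Vim followed at -2.31 (-2.39 to -2.23), the 185th lowest. Zeb2 had -1.77, with a wide interval of -3.53 to -0.57 from its 6 and 21 counts. Zeb1 had -1.20 (-1.56 to -0.87), so its interval reached inside the 2-fold line. On the linear scale the scaled values were 11.2-fold higher in replicate 2 for Cdh2, 4.96-fold for Vim, 3.41-fold for Zeb2 and 2.30-fold for Zeb1.

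The other members lay within 2-fold. The log2 ratio was 0.04 for Cdh1 (0.02 to 0.06), 0.08 for Epcam (0.05 to 0.12) and 0.36 for Esrp1 (0.31 to 0.41), beside a median of 0.02 over all genes. It was 0.45 for Snai1 (0.20 to 0.70) and 0.12 for Twist1 (-0.19 to 0.43). The 2 cadherins therefore differed from each other in this respect, Cdh1 being nearly level between the libraries and Cdh2 the most uneven of the set. The 2 SNAIL genes could not be compared at the counts of Snai2, whose interval ran from -3.30 to 0.78.

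**Figure D3:**
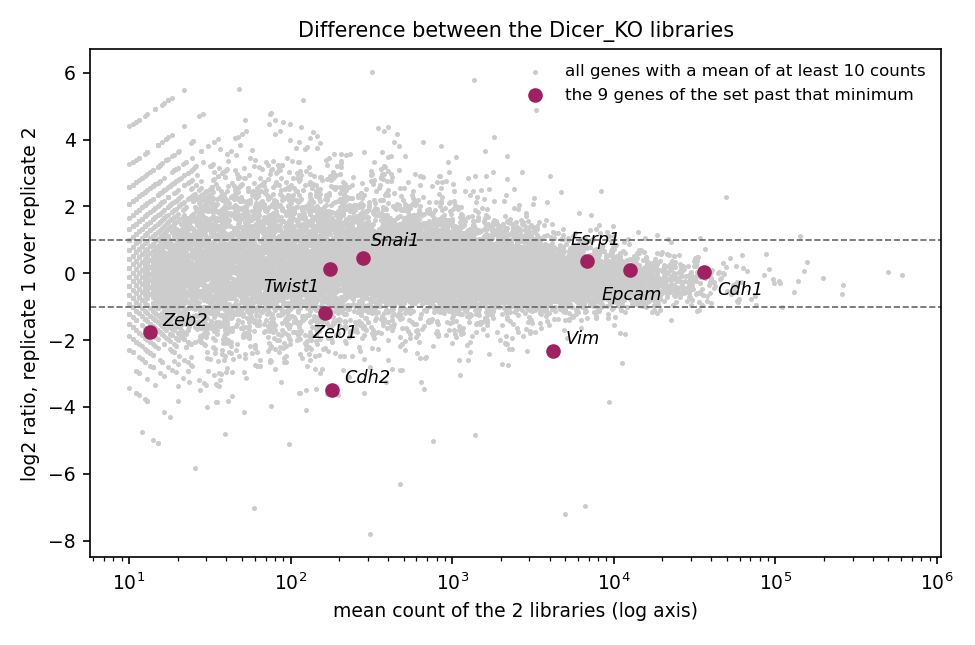
Log2 ratio of replicate 1 over replicate 2 after TMM scaling against the mean count of the 2 libraries (log axis), for the 17788 genes averaging 10 or more counts (grey) and the 9 members among them (named), with dashed lines at 2-fold. Cdh2, Vim, Zeb2 and Zeb1 lie below the lower line and Cdh1, Epcam, Esrp1, Snai1 and Twist1 between the lines.

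The remaining cadherins were mostly sparse. Of 21 genes, 14 passed the minimum, 5 were called (2 higher and 3 lower in replicate 1), and the median log2 ratio was 0.13. Cdh3, which encodes P-cadherin of epithelia and placenta, was the most abundant at 93.0 and 65.9 CPM, and per kb it lay 9.47 and 12.0 times below Cdh1. Cdh13, a cadherin with a lipid anchor in place of a tail, came next at 8.89 and 9.26 CPM. Those higher in replicate 1 were Cdh22 (95 and 24 counts) and Cdh20 (21 and 5), and those lower were Cdh18 (53 and 137), Cdh26 (7 and 25) and Cdh6 (4 and 18). All 5 had a mean under 100 counts, a level at which 41.3% of all genes were called.

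The partners of E-cadherin at the junction were abundant in both libraries. Of 12 genes, 11 passed the minimum and 1 was called, beside 21.4% of all genes. The median log2 ratio of the list was -0.09. Ctnnb1, which encodes beta-catenin, had 953 and 974 CPM, close to Cdh1, and Ctnna1, which encodes the alpha-catenin that joins it to actin, had 613 and 676. The ratio was lowest for Ctnnd2, at -0.62. Ctnna2, the neuronal alpha-catenin, was the gene called, with 33 and 6 counts and a log2 ratio of 2.17, and Ctnna3 had 0 counts in both. Ctnna2 averaged under 100 counts, a level at which 41.3% of all genes were called.

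Other transcription factors linked to EMT went both ways. Of 12 genes, 8 passed the minimum and 4 were called, beside 21.4% of all genes. The median log2 ratio of the list was 0.16. Lef1, which binds beta-catenin, had 83 and 535 counts and a log2 ratio of -2.80, the lowest of the list, and Sox4 had 409 and 1011 counts and -1.43. Prrx2 (134 and 30 counts) and Gsc (42 and 14), homeobox genes of mesenchyme and of the organizer, were higher in replicate 1. Prrx2 and Gsc averaged under 100 counts, a level at which 41.3% of all genes were called. Tcf3 (107 and 83.7 CPM) and Klf8 (63.4 and 77.5 CPM) were the most abundant and lay within 2-fold.

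Epithelial regulators and products leaned towards replicate 1. All 15 passed the minimum, and the median log2 ratio was 0.68. Beside 14.2% of all genes called higher in replicate 1, 5 of the list were called, each of them higher. Among them were Marveld3, a tight junction protein (326 and 51 counts, log2 ratio 2.53), Crb3, a polarity protein (874 and 260, 1.62), Rab25, a GTPase of epithelial recycling (846 and 307, 1.34), and Ovol1, a zinc finger repressor of the mesenchymal state (155 and 60, 1.23). The most abundant by the mean of the libraries, St14 (310 and 166 CPM) and Spint1 (175 and 136 CPM), a membrane protease and its inhibitor, had ratios of 0.78 and 0.24. Grhl2, a factor that binds the Cdh1 gene, had the lowest, -0.11, from 5924 and 5854 counts.

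Of the mesenchymal and fibroblast products, the called genes did not share the direction of Vim and Cdh2. Of 17 genes, 12 passed the minimum and 3 were called, all higher in replicate 1, beside 21.4% called and 14.2% higher over all genes. The called genes included Loxl2, a matrix cross-linking enzyme (451 and 95 counts, 2.11), and Pdgfrb (285 and 91, 1.52). The median of the list was 0.17. Fn1, the fibronectin gene, was the most abundant at 1652 and 1357 CPM, followed by Sparc at 410 and 390, and Fbn1 had the lowest ratio at -0.47. The defining fibroblast collagens were near 0, with 20 and 18 counts for Col1a1, 6 and 1 for Col1a2 and 1 and 0 for Col3a1, and Postn had 0 in both. The summed level of the list was 2224 and 1828 CPM.

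In the TGF-beta pathway, the best known inducer of EMT, all 11 genes passed the minimum and 2 were called, beside 21.4% of all genes. The median log2 ratio of the list was 0.12. The receptor Tgfbr2 had 595 and 120 counts and a log2 ratio of 2.18, and the ligand Tgfb3 had 50 and 10 counts and 2.10. Tgfb3 averaged under 100 counts, a level at which 41.3% of all genes were called. Skil, a brake on SMAD proteins, was the most abundant at 266 and 398 CPM and had the lowest ratio at -0.70. Ski, its relative, came next at 146 and 103 CPM.

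Known miR-200 targets outside the set differed by less than 2-fold between the libraries. All 9 passed the minimum and 0 were called, beside 21.4% of all genes. Among all genes averaging 100 or more counts, as all but Zfpm2 did, 14.0% were called, so few calls would stand out in so short a list. The median log2 ratio of the 9 was -0.22, from -0.59 for Bmi1 to 0.75 for Zfpm2. Suz12 (457 and 503 CPM) and Qk (351 and 352 CPM) were the most abundant. In their 3′ UTRs, 8 of 9 held at least 1 match to a miR-200 seed, with a maximum of 6 in Qk, whose 3′ UTR has 7014 nucleotides. The miRNA genes themselves were hardly seen in polyA RNA: Mir200a had 3 and 0 counts, and Mir200b, Mir200c, Mir141, Mir429 and Mir205 had 0 in both.

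Among the marker lists of other cell types, the trophoblast list differed most between the libraries. Over all genes, 21.4% were called, 14.2% higher and 7.14% lower in replicate 1. The trophoblast list had 169 and 36.9 CPM in sum, and of its 6 genes the 5 above the minimum were all called higher in replicate 1. They were Krt7 (2674 and 44 counts, log2 ratio 5.77), Hand1 (229 and 15, 3.73), Elf5 (70 and 11, 2.45), Tfap2c (3742 and 1311, 1.39) and Eomes (334 and 151, 1.02). Elf5 averaged under 100 counts, a level at which 41.3% of all genes were called. Cdx2 had 6 and 1 counts. The neural list had 62.2 and 92.4 CPM in sum, and most of that difference came from Tubb3 (13.4 and 39.8 CPM). Of its 6 genes, 4 passed the minimum and 1 was called lower in replicate 1, Tubb3 (559 and 1653 counts, -1.68). Nes, the most abundant, had 42.5 and 44.6 CPM, Sox1 had the highest ratio at 0.09, Neurog2 had 0 and 1 counts and Olig2 had 0 in both.

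The mesoderm list, at 11.9 and 13.5 CPM in sum, had 4 of 6 genes above the minimum and 2 called in opposite directions. Kdr, the VEGF receptor of endothelial precursors, had 90 and 353 counts (-2.08), and Eomes, shared with the trophoblast list, was higher in replicate 1. The primitive endoderm list, at 18.3 and 10.6 CPM, had 5 of 7 above the minimum and 2 called higher, Dab2 (52 and 17 counts, 1.44) and Gata6 (16 and 5 counts). Both averaged under 100 counts, a level at which 41.3% of all genes were called. Gata4 and Pdgfra were the most abundant genes of that list, with 586 and 318 and with 83 and 87 counts, and Pdgfra had the lowest ratio at -0.19. In the mESC list 1 of 9 was called, Dppa5a (199860 and 84835 counts, 1.11), and Zfp42 had the lowest ratio at -0.32. The part of these cell types in the lower Cdh2, Vim, Zeb1 and Zeb2 of replicate 1 was not tested.

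**Figure D4:**
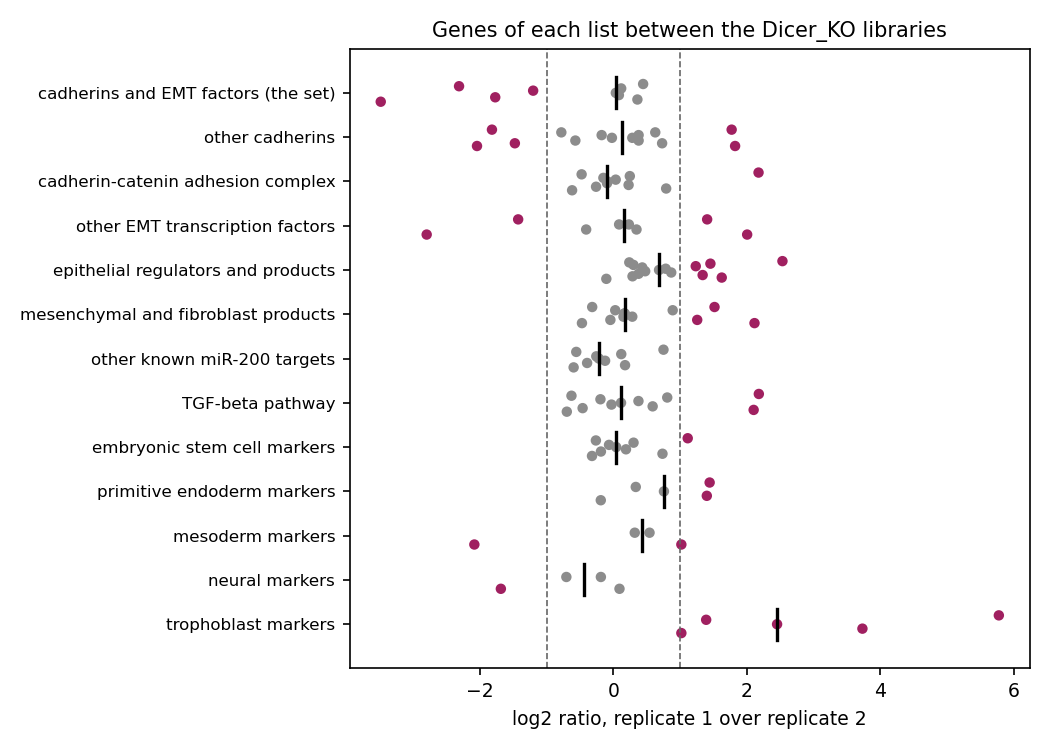
Log2 ratio of replicate 1 over replicate 2 for genes averaging 10 or more counts in the set of cadherins and EMT factors and in 12 other lists, with points beyond 2-fold in purple, a black bar at each median and dashed lines at 2-fold. The 4 called members lie to the left, the 5 called epithelial genes and the 5 trophoblast genes to the right, and Eomes is drawn in 2 lists.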

How the data were processed

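PolyA RNA of 2 Dicer_KO libraries was sequenced. After trimming (Trimmomatic) and alignment to mm10 with STAR (2.4.2a), the authors counted reads per Ensembl gene with featureCounts (1.4.5-p1), ignoring those in overlapping regions, and the deposited values are raw counts. How reads with several alignments were counted is not given in the sources used here. Here, CPM used the total counts on genes, scaling used edgeR 4.0.16 in R 4.3.3, and intervals used scipy 1.17.1. Symbols were found for 42462 of 43629 identifiers, and positions, exon lengths and 3′ UTRs came from GENCODE M21. The members and lists were chosen with earlier results of these data known. Named were Dicer1, all members and, in each list, the 2 most abundant genes, the extremes of the ratio and the called genes, of which some are not reported here. The alternatives were size factors of DESeq2 1.42.0, total counts, a smaller pseudocount (0.1), other minimums, 4-fold, transcript lengths, TMM library sizes for CPM, the longer seed match and each library alone.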

Additional observations from a re-analysis of the deposited data

How the results depend on the processing

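Under DESeq2 size factors, total counts, a pseudocount of 0.1 and no minimum, 4 members were called, with a minimum mean of 100 counts 3, and at 4-fold 2. Total counts moved the median log2 ratio of all genes from 0.02 to 0.14, and with them the ratio was 0.15 for Cdh1, 0.20 for Epcam, 0.48 for Esrp1 and -2.19 for Vim. Genes of the other lists beyond the threshold numbered 30 among 106, 18 when a mean of 100 counts was required and 12 at 4-fold. Over all genes they numbered 3803, against 7938 with no minimum, 1827 when a mean of 100 counts was required and 1016 at 4-fold, where fewer or more genes could be called. Members with a miR-200 seed match numbered 5, and 2 when the longer match was required. With the longest transcript, the level per kb rose from 0.384 to 0.679 for Zeb1, from 0.0163 to 0.0356 for Zeb2, from 0.535 to 0.891 for Cdh2, from 26.1 to 42.5 for Esrp1 and from 21.4 to 34.7 for Vim. Leaving out a library gives the other library's level and leaves no ratio, so it shows no stability. At these depths, Snai2 (4 and 8 counts) and Zeb2 (6 and 21) are the least precise members.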
